A study of Mus musculus with 16 samples.

Results

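Ferroptosis is an iron-dependent form of cell death in which the polyunsaturated acyl chains of membrane phospholipids become peroxidized. Acsl4 and Lpcat3 place these chains in phospholipids, the glutathione peroxidase Gpx4 reduces the lipid peroxides, and free iron drives their formation. Hepatocytes are a main iron store of the body, and ferritin is the protein shell in which they keep it. The 10 genes described here are the rows of the deposited table whose symbol is Acsl4, Lpcat3, Gpx4, Slc7a11, Gclc, Aifm2, Tfrc, Fth1, Ftl1 or Hmox1. They are 10 of 17003 genes listed, and all 10 symbols were found.

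Livers of 16 male mice, 8 weeks old, fed normal chow and taken in the fed state, were sequenced with 1 library per mouse. The 8 Fgl1 LWT mice carry floxed Fgl1 alleles (fl/fl) without CRE, and the 8 Fgl1 LKO littermates carry the same alleles with CRE under the albumin promoter, so that the deletion is directed to hepatocytes and both groups share the floxed background. Other liver cells keep the gene. Values are FPKM, fragments scaled to transcript length and library size, so that levels can be compared between genes. Fgl1, a hepatocyte-secreted protein, lay between 157.8 and 1331 FPKM in LWT livers and between 13.2 and 90.0 FPKM in LKO livers. The 5 hepatocyte markers (Alb, Ttr, Apoa1, Apob and Cps1) summed to between 44915 and 84132 FPKM in every mouse. Read numbers of the libraries are unknown, and the summed FPKM of a mouse lay between 673153 and 786188. The mouse numbers fall into 4 runs, and the first, 36 to 38, holds 3 LWT mice only. LKO replicates 7 and 8 (mice 70 and 71) stood apart for Acsl4 and for Srxn1, the sulfiredoxin that repairs oxidized peroxiredoxins, so that results resting on them are given with and without them.

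On GRCm39 with the GENCODE vM39 annotation, Acsl4 lies at chrX:141100840-141173789 on the minus strand and Lpcat3 at chr6:124639765-124684440 on the plus strand. Gpx4 lies at chr10:79883000-79892273, Aifm2 at chr10:61540677-61577788 and Gclc at chr9:77661797-77701770, all on the plus strand. Slc7a11 lies at chr3:49846975-50398070 on the minus strand. Of the iron genes, Tfrc lies at chr16:32427556-32451612, Fth1 at chr19:9957911-9962462 and Hmox1 at chr8:75820241-75827217, all on the plus strand, and Ftl1 at chr7:45107367-45109308 on the minus strand.

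The ferritin and transferrin receptor transcripts carry iron-responsive elements, short hairpins that the iron regulatory proteins bind when iron is low. Binding near the start of the ferritin mRNAs blocks their translation, and binding in the tail of Tfrc mRNA protects it from decay. These hairpins are shown because they link the iron genes to each other at the level of RNA. The letters searched on the transcript strand were a bulged C, 5 bases, CAGTGN and 5 bases that pair with the first 5 (G with T allowed), within the untranslated regions of protein-coding transcripts. Of 20927 genes with an annotated 5′ UTR, 47 (0.225%) held a match, and of 21522 genes with a 3′ UTR, 163 (0.757%) did. Among the 10 genes, matches lay in the 5′ UTR of Fth1 and Ftl1 and in the 3′ UTR of Tfrc, where 4 were found. Each is printed from 5′ to 3′ with 6 bases on either side, and the 6 bases of the loop are in capitals.
Fth1, 5′ UTR, chr19:9960096-9960124, plus strand: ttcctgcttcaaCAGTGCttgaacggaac
Ftl1, 5′ UTR, chr7:45109203-45109231, minus strand: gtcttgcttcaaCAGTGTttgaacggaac
Tfrc, 3′ UTR, chr16:32450037-32450065, plus strand: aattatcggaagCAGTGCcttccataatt
Tfrc, 3′ UTR, chr16:32450416-32450444, plus strand: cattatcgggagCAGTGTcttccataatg
Tfrc, 3′ UTR, chr16:32450481-32450509, plus strand: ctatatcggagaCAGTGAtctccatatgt
Tfrc, 3′ UTR, chr16:32450528-32450556, plus strand: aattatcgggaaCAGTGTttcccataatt
A match is a match of letters, and binding was not measured here.

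The 10 genes ranged from abundant transcripts to almost none. Ftl1, the ferritin light chain, had the highest mean level over the 16 mice at 3589 FPKM, followed by the ferritin heavy chain Fth1 (1275 FPKM), Gpx4 (293.7 FPKM) and Gclc (103.4 FPKM). Lpcat3 (36.6 FPKM), Acsl4 (16.4 FPKM), Hmox1 (11.9 FPKM), Aifm2 (9.19 FPKM) and Tfrc (3.87 FPKM) came next. Slc7a11, which imports the cystine needed for glutathione, was at 0 in 11 mice and at 0.01 FPKM, the smallest value that the table can show, in the other 5. The order was taken from these same means, so that the direction of each difference was set beforehand. Of the 9 pairs of neighbours in it, 7 had a difference within a mouse beyond its spread across the 16 mice. Their adjusted p lay between 4.58e-05 and 0.000157 (exact sign-flip test over all signs, two-sided, Benjamini-Hochberg). Acsl4 lay above Hmox1 in 11 of 16 mice (adjusted p = 0.124, exact sign-flip test) and Hmox1 above Aifm2 in 10 of 16 (adjusted p = 0.14, exact sign-flip test). Neither pair differed beyond its spread across mice. Slc7a11 failed the filter of 0.1 FPKM on the mean, and the 9 other genes passed it and were tested. All 9 were above 0 in every mouse.

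**Figure D1:**
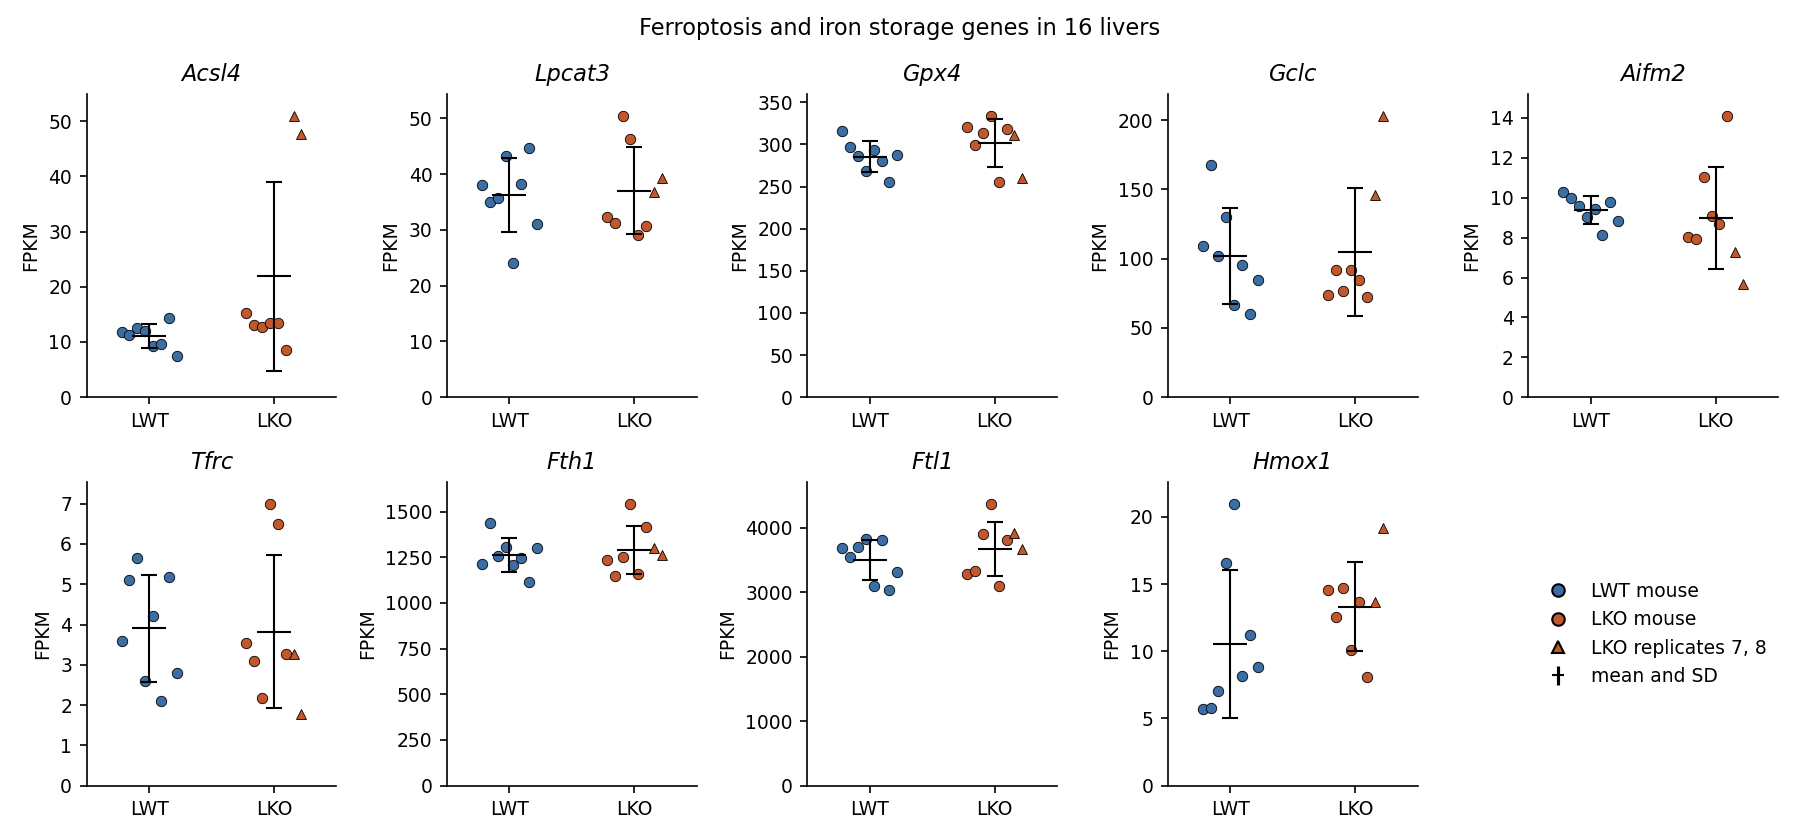
FPKM of the 9 tested genes in each liver, with 8 LWT mice (blue) and 8 LKO mice (orange) per panel, triangles for LKO replicates 7 and 8, and bars for the mean and SD. Acsl4 reached 50.9 and 47.7 FPKM in the triangles, against 7.40 to 15.2 FPKM in all other mice. The genotypes overlapped in every panel, that of Acsl4 included.

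No gene of the 9 passed the adjusted threshold of 0.05 between genotypes (limma on log2(FPKM + 1), two-sided, Benjamini-Hochberg over 12770 genes). Neither did any other gene, 0% of those tested, and Fgl1 itself had an adjusted p of 0.0725 (limma). Fgl1 alone passed with an equal sum of FPKM, with the replicate block, with the run of mouse numbers in the model, without the first run and with the acute-phase genes as a covariate (limma, adjusted p between 1.8e-08 and 0.0453). The smallest adjusted p among the 9 was 0.696 (limma), for Acsl4. Of the 9, 1 (Acsl4) had an unadjusted p under 0.05, against 895 of the 12770 genes (7.01%), of which 593 were higher and 302 lower in LKO livers. That split was 467 higher and 519 lower with median-ratio scaling and 415 and 591 with quantile normalization. By the exact permutation test over all splits of the mice, again Acsl4 alone had an unadjusted p under 0.05, against 7.06% of all genes tested. The genotypes overlapped for all 9 genes, and 2 genes of the table (0.0157%), Fgl1 and Fitm2, did not overlap. The estimate was higher in LKO livers for 7 of the 9 and lower for 2, with a median log2 difference of 0.03 against 0.01 over all genes tested.

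Acsl4, the acyl-CoA synthetase that prefers arachidonic acid, was measured at 11.9, 11.2, 12.6, 11.9, 9.24, 9.69, 14.4 and 7.40 FPKM in LWT replicates 1 to 8. In LKO replicates 1 to 8 it was at 15.2, 13.0, 12.6, 13.5, 13.4, 8.59, 50.9 and 47.7 FPKM. The 2 highest livers were LKO replicates 7 and 8, and the other 6 LKO livers lay within or just above the LWT range. The means were 11.0 ± 2.17 FPKM in LWT and 21.9 ± 17.1 FPKM in LKO livers (SD, n = 8 each). The log2 difference was 0.67 ± 0.30 (SE, 95% interval 0.04 to 1.30, limma unadjusted p = 0.0396 and adjusted p = 0.696, exact permutation test unadjusted p = 0.0468), and 7 of 8 LKO mice lay above the LWT median. Without LKO replicates 7 and 8 it was 0.19 ± 0.13 (limma, unadjusted p = 0.167). Left out alone, LWT replicate 2, 5, 6 or 8 or LKO replicate 7 or 8 each took the unadjusted p above 0.05 (limma, 0.0519, 0.0619, 0.0598, 0.075, 0.0856 and 0.0873), with differences between 0.46 and 0.67. It was 0.88 with the run of mouse numbers in the model (limma, unadjusted p = 0.00559) and 0.74 without the first run (limma, unadjusted p = 0.0686). With the Kupffer cell markers as a covariate it was 0.44 (limma, unadjusted p = 0.167). In bulk liver RNA, fewer cells of a type and less RNA per cell cannot be told apart.

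**Figure D2:**
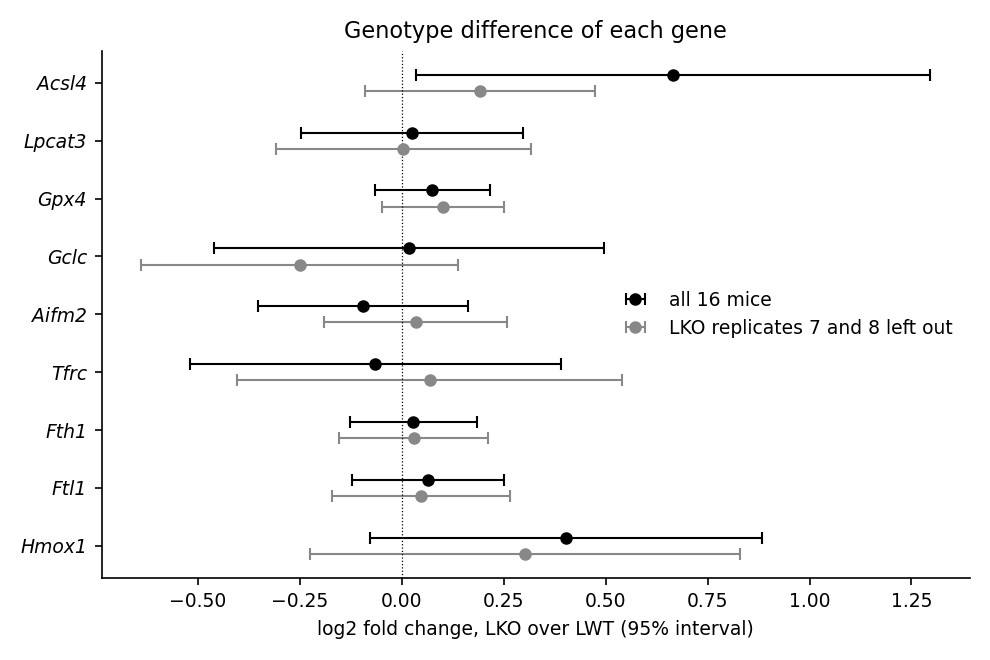
Log2 fold change of LKO over LWT on the log2(FPKM + 1) scale with its 95% interval (limma), for all 16 mice (black) and without LKO replicates 7 and 8 (grey). The black interval lay above 0 for Acsl4, from 0.04 to 1.30, and included 0 for the 8 other genes, and every grey interval included 0.

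Lpcat3, which inserts polyunsaturated acyl chains into lysophospholipids downstream of Acsl4, had a lowest, median and highest level of 24.1, 36.9 and 44.7 FPKM in LWT livers and 29.0, 34.6 and 50.4 FPKM in LKO livers. The log2 difference was 0.02 ± 0.13 (SE, limma, adjusted p = 0.97), with a 95% interval from -0.25 to 0.30. The genotypes overlapped, and the 2 LKO livers with high Acsl4 (36.8 and 39.3 FPKM for Lpcat3) lay in the middle of the range.

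Of the 4 genes of the antioxidant arm, Gpx4 had the lowest residual SD within genotype of the 9 genes tested. Its lowest, median and highest levels were 256.0, 287.1 and 315.6 FPKM in LWT and 255.7, 312.5 and 333.8 FPKM in LKO livers, a ratio of 1.31 between the highest and the lowest of the 16 mice. The log2 difference was 0.08 ± 0.07 (SE, limma, adjusted p = 0.795), and its 95% interval corresponded to 0.956-fold to 1.16-fold. This SD was 0.12 on the log2 scale, and 12.5% of the 10038 genes with a mean level of 1 FPKM or more had an SD that was no higher.

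Gclc, the catalytic subunit of the enzyme that limits glutathione synthesis, had a lowest, median and highest level of 60.2, 98.6 and 167.7 FPKM in LWT and 72.3, 88.0 and 202.9 FPKM in LKO livers. The highest 2 LKO livers were again replicates 7 (146.0 FPKM) and 8 (202.9 FPKM), and LWT replicate 2 lay between them. The log2 difference was 0.02 ± 0.23 (SE, limma, adjusted p = 0.986), and without these 2 livers it turned to -0.25 (95% interval -0.64 to 0.14; limma, adjusted p = 0.989).

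Aifm2, also called FSP1, reduces ubiquinone at the membrane and so traps lipid radicals without glutathione. It had a lowest, median and highest level of 8.14, 9.53 and 10.3 FPKM in LWT and 5.66, 8.36 and 14.1 FPKM in LKO livers, so that the LKO livers reached both further down and further up. The lowest 2 of all mice were LKO replicates 8 (5.66 FPKM) and 7 (7.30 FPKM), the livers in which Acsl4 was highest. The log2 difference was -0.09 ± 0.12 (SE, limma, adjusted p = 0.866), and it turned to 0.03 without these 2 livers (limma, adjusted p = 0.991). Slc7a11 was at 0.01 FPKM in 2 LWT and 3 LKO livers and at 0 in the rest, and no fold is given.

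Tfrc, the receptor that takes up transferrin-bound iron, had a lowest, median and highest level of 2.10, 3.91 and 5.64 FPKM in LWT and 1.77, 3.28 and 6.98 FPKM in LKO livers. The groups overlapped almost fully, and Tfrc differed 3.94-fold between the highest and the lowest of the 16 mice. The log2 difference was -0.07 ± 0.22 (SE, limma, adjusted p = 0.957), and it changed sign in several alternatives, among them 0.13 with the run of mouse numbers in the model (limma, adjusted p = 0.906).

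The ferritin chains varied little. Fth1, which oxidizes iron for storage, had a lowest, median and highest level of 1116, 1254 and 1437 FPKM in LWT and 1148, 1258 and 1539 FPKM in LKO livers (log2 difference 0.03 ± 0.07, SE; limma, adjusted p = 0.941). Ftl1, which helps the iron core form, lay at 3042, 3620 and 3832 FPKM in LWT and at 3095, 3741 and 4364 FPKM in LKO livers (log2 difference 0.06 ± 0.09, SE; limma, adjusted p = 0.874). The groups overlapped for both. The 95% intervals corresponded to 0.915-fold to 1.14-fold for Fth1 and 0.919-fold to 1.19-fold for Ftl1. Both genes summed to 4766 ± 365.3 FPKM in LWT and 4962 ± 531.6 FPKM in LKO livers (SD, n = 8 each; exact permutation test, two-sided, p = 0.429). The ratio of Ftl1 to Fth1 was 2.78 ± 0.24 in LWT and 2.85 ± 0.17 in LKO livers (SD, n = 8 each; exact permutation test, two-sided, p = 0.495), and it lay between 2.47 and 3.12 in all mice. The GENCODE annotation holds 8 pseudogenes with ferritin symbols, and it types Ftl1-ps1 and Fthl17a to Fthl17f as protein-coding. The table lists Fthl17a, at 0 in every mouse, as the 1 other symbol beginning with Fth or Ftl, so that Ftl1-ps1 has no row. How reads shared between ferritin copies were assigned is not given in the sources used here, so that the ferritin levels are uncertain to that extent.

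Hmox1, the haem oxygenase that frees iron from haem, had a lowest, median and highest level of 5.71, 8.48 and 20.9 FPKM in LWT and 8.06, 13.7 and 19.2 FPKM in LKO livers. The highest liver of all was an LWT liver (replicate 5), and 7 of 8 LKO livers lay above the LWT median. The means were 10.5 ± 5.49 FPKM and 13.3 ± 3.31 FPKM (SD, n = 8 each), and the log2 difference was 0.40 ± 0.23 (SE, limma, unadjusted p = 0.0955, adjusted p = 0.711; exact permutation test, unadjusted p = 0.133). The 3 LWT mice of the first run of mouse numbers, at 5.71, 5.76 and 7.06 FPKM, were the 3 lowest of all 16. Without them the difference was 0.07 ± 0.22 (limma, adjusted p = 0.963), and with the run in the model it was 0.03 ± 0.21 (limma, adjusted p = 0.978). With the Kupffer cell markers as a covariate it was 0.11 ± 0.18 (limma, adjusted p = 0.992). Left out alone, LWT replicate 4 or 5 or LKO replicate 6 took the unadjusted p under 0.05 (limma, 0.0362, 0.0123 and 0.0463).

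The spread within genotype differed among the 9 genes. On the log2(FPKM + 1) scale the residual SD was 0.67 for Acsl4, 0.51 for Hmox1, 0.50 for Gclc and 0.48 for Tfrc, against a median of 0.18 over those 10038 genes. It was 0.28 for Lpcat3, 0.26 for Aifm2, 0.15 for Ftl1, 0.13 for Fth1 and 0.12 for Gpx4. The first 4 lay at or above 95.4% of these genes, and Gpx4 and both ferritins lay below their median.

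Among other genes, LKO replicates 7 and 8 were also the highest of all 16 mice for Srxn1, Txnrd1 and Gss. These named genes were chosen here after their values were seen, and this comparison carries no test. Srxn1 was at 70.4 and 178.5 FPKM in these livers and between 11.7 and 18.1 FPKM in the other 14. Txnrd1, the cytosolic thioredoxin reductase, was at 57.7 and 72.4 FPKM there and between 33.3 and 52.2 FPKM elsewhere, and Gss, the glutathione synthetase, at 56.4 and 59.3 FPKM against 17.6 to 43.7 FPKM. Not all genes of the same lists were high there. Prdx6, a peroxiredoxin, was lowest of all 16 in these livers, at 161.0 and 137.8 FPKM, and LKO replicate 8 was also the lowest for Gclm, the modifier subunit of glutamate-cysteine ligase (56.2 FPKM), and for Cth, which makes cysteine from cystathionine (102.5 FPKM). Both livers are LKO livers of the last run of mouse numbers, which also holds 2 LWT livers (replicates 7 and 8) with Acsl4 at 14.4 and 7.40 FPKM.

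**Figure D3:**
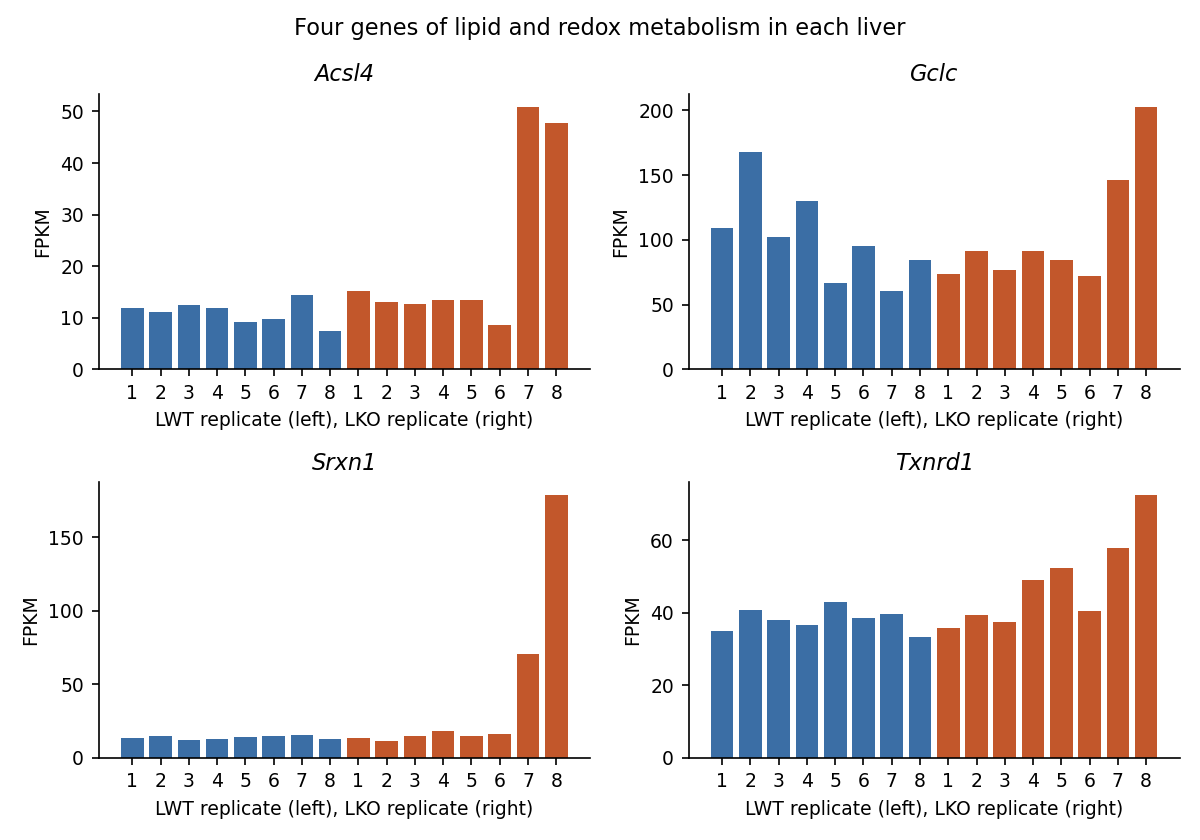
FPKM of Acsl4, Gclc, Srxn1 and Txnrd1 in each liver, with LWT replicates 1 to 8 in blue and LKO replicates 1 to 8 in orange. LKO replicates 7 and 8 were the highest 2 of 16 for Acsl4, Srxn1 and Txnrd1, and for Gclc LWT replicate 2 (167.7 FPKM) lay between them.

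The wider pathways were read from 7 lists of 77 different genes without the 10 genes above. Of 72 that passed the filter, none passed the adjusted threshold, and 4 had an unadjusted p under 0.05, all higher in LKO livers, where the share over all genes was 7.01%. Por, the cytochrome P450 reductase that can feed electrons to lipid peroxidation, was at 55.1 ± 10.7 FPKM in LWT and 76.2 ± 14.7 FPKM in LKO livers (SD, n = 8 each; log2 difference 0.46 ± 0.13, SE; limma, unadjusted p = 0.003, adjusted p = 0.696). All 8 LKO livers lay above the LWT median of Por, and the share of all genes with such a pattern was not counted. For Fech, of the haem list, all 8 lay below it (limma, unadjusted p = 0.157). Vkorc1l1, which reduces vitamin K, was at 8.50 ± 0.47 and 9.94 ± 1.02 FPKM (SD, n = 8 each; log2 difference 0.20 ± 0.06, SE; limma, unadjusted p = 0.00519, adjusted p = 0.696). Txnrd1 had a log2 difference of 0.29 ± 0.12 (SE, limma, unadjusted p = 0.0259, adjusted p = 0.696), and Agps, of plasmalogen synthesis, of 0.18 ± 0.07 (SE, limma, unadjusted p = 0.0306, adjusted p = 0.696). Without LKO replicates 7 and 8, Por (0.37; limma, unadjusted p = 0.0181) and Vkorc1l1 (0.16; limma, unadjusted p = 0.0248) still had an unadjusted p under 0.05 and Txnrd1 (0.14; limma, unadjusted p = 0.127) and Agps (0.15; limma, unadjusted p = 0.0898) did not, while Gss then did, lower in LKO livers (-0.43, limma, unadjusted p = 0.0111). These were 3 of the 72 genes, against 534 of all 12770 genes tested in the same 14 mice (limma, unadjusted p under 0.05).

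By list, 1 of 9 tested genes of glutathione and cystine (Txnrd1), 2 of 9 of lipid peroxidation and radical trapping (Por and Vkorc1l1) and 1 of 11 of fatty acid activation and phospholipid remodelling (Agps) had an unadjusted p under 0.05. None of 17 tested genes of iron uptake, export and sensing, 7 of hepcidin and its control, 10 of haem handling and 10 of NRF2 and its targets did. Over all genes tested, the share with an unadjusted p under 0.05 (limma) was 7.01%. The median log2 differences of the 7 lists lay between -0.04 and 0.11, against 0.01 over all genes tested. Hamp, the hormone hepcidin that closes the iron exporter, was at 3553 ± 1729 FPKM in LWT and 3885 ± 1606 FPKM in LKO livers (SD, n = 8 each; log2 difference 0.17 ± 0.32, SE; limma, adjusted p = 0.915). Chac1, a glutathione-degrading enzyme, was at 4.26 ± 2.68 and 4.48 ± 2.79 FPKM (SD, n = 8 each; limma, adjusted p = 0.975). Ptgs2, often read as a marker of ferroptosis, was at 0 or 0.01 FPKM in every liver. Of the most abundant gene of each list, Trf, Gpx1, Hpx, Gstm1, Acsl1 and Prdx6, none had an unadjusted p under 0.05.

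How the genes varied together was read from the 16 mice after each genotype's mean was taken off. Of 36 pairs of the 9 genes, none passed the threshold (Pearson's r of log2(FPKM + 1), 100000 permutations within genotype, Benjamini-Hochberg over 36 pairs). The median absolute r was 0.27, against 0.24 over all pairs of the 12770 genes, which are not independent of each other. The closest pair without Acsl4 was the ferritin chains, Fth1 and Ftl1, with r = 0.71 (permutation p = 0.00325, adjusted p = 0.117) and a Spearman rho of 0.70 (permutation p = 0.00458). Without the 2 mice farthest from the Fth1 median r was 0.69. It was 0.81 with quantile normalization (permutation test, adjusted p = 0.0101) and 0.80 with values scaled to an equal sum (permutation test, adjusted p = 0.0122), and both of these passed the threshold. Lpcat3 and Ftl1 followed at r = 0.60 (permutation p = 0.019, adjusted p = 0.207), with rho = 0.60 (permutation p = 0.021) and r = 0.52 without the 2 mice farthest from the Lpcat3 median.

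Acsl4 fell into 2 separate clusters of 2 and 14 mice, so that no r over 16 mice is given for it. In the 14 mice, its r was 0.13 with Gclc, -0.37 with Aifm2 and 0.45 with Lpcat3 (permutation p = 0.695, 0.208 and 0.134). Gclc and Aifm2 had r = -0.54 over 16 mice (permutation p = 0.0426, adjusted p = 0.244; r = -0.42 without the 2 mice farthest from the Gclc median) and -0.09 without LKO replicates 7 and 8 (permutation p = 0.605). Tfrc had r = 0.14 with Fth1 (permutation p = 0.631) and -0.18 with Ftl1 (permutation p = 0.541), the genes whose iron-responsive elements are printed beside its own.

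**Figure D4:**
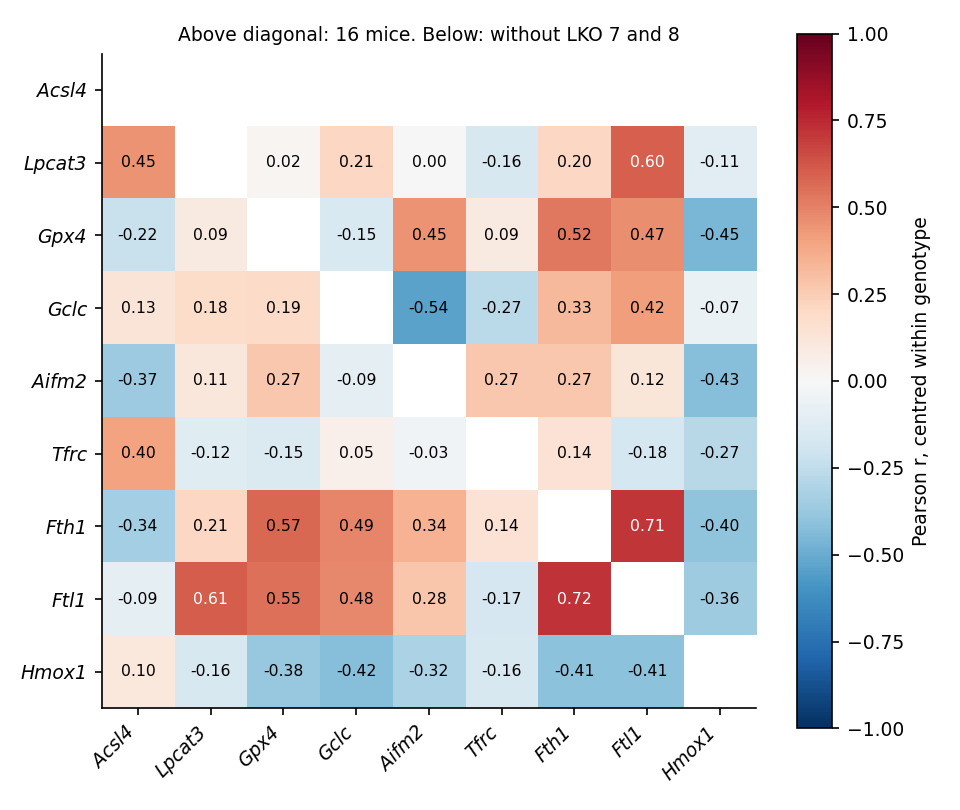
Pearson's r between the 9 genes across mice, on log2(FPKM + 1) centred within genotype, over 16 mice above the diagonal (left blank for Acsl4) and over 14 mice without LKO replicates 7 and 8 below it. Fth1 with Ftl1 was the highest in both, at 0.71 and 0.72, and Hmox1 was negative in both with every gene other than Acsl4. No pair passed the adjusted threshold in either.

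The 9 genes were also set against 4 measures of the livers, the mean log2 of 5 acute-phase genes (Saa1, Saa2, Saa3, Orm2 and Lcn2), of 8 Kupffer cell markers, of 5 erythroid markers, and Hamp. Of 36 relations, 3 passed the threshold (100000 permutations within genotype, Benjamini-Hochberg over 36). The share of all other genes that would pass with these measures was not computed. The 3 relations are therefore not shown to be particular to these genes. Ftl1 fell as the acute-phase genes rose, with r = -0.81 (permutation p = 0.00017, adjusted p = 0.00612) and rho = -0.71 (permutation p = 0.00319). It was -0.90 within LWT and -0.78 within LKO mice, -0.72 without the 2 mice farthest from the median, and between -0.82 and -0.75 for each of the 5 genes alone. With the run of mouse numbers also taken off it was -0.92 (permutation test, adjusted p = 0.00072). With median-ratio scaling it was -0.61 and did not pass (permutation test, adjusted p = 0.111), nor did it without the first run, at -0.84 (permutation test, adjusted p = 0.0544). Ftl1 was not alone in this direction. Lpcat3 (-0.53), Gpx4 (-0.52), Fth1 (-0.52), Gclc (-0.50) and Aifm2 (-0.08) also had a negative r with the acute-phase genes. None of these passed (permutation test, adjusted p between 0.229 and 0.899). Hmox1 (0.46) and Tfrc (0.15) had a positive r and did not pass either (permutation test, adjusted p = 0.373 and 0.873). The acute-phase genes summed to between 99.3 and 35150 FPKM in LWT and between 119.9 and 14614 FPKM in LKO livers.

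Hmox1 rose with the Kupffer cell markers, with r = 0.73 (permutation p = 0.00113, adjusted p = 0.0203), rho = 0.79 (permutation p = 0.00032) and r = 0.63 without the 2 mice farthest from the median. It was 0.74 within LWT and 0.80 within LKO mice, and all 8 markers alone were positive (0.42 for Timd4 to 0.78 for Cd5l). With the run of mouse numbers taken off as well, r was 0.57 (permutation test, adjusted p = 0.183), and without LKO replicates 7 and 8 it was 0.69 (permutation test, adjusted p = 0.0798). It also did not pass without the first run, at 0.61, nor without LKO replicate 6 or 8 alone, at 0.69 for both (permutation test, adjusted p = 0.157, 0.053 and 0.0531). Kupffer cells, the macrophages that clear old red cells, are outside the reach of the albumin promoter. All 8 of their markers were above 0 in every liver, and they summed to between 77.2 and 162.7 FPKM (median 127.7) in LWT and between 104.9 and 207.2 FPKM (median 146.1) in LKO livers. Of these markers Adgre1 and Vsig4 had an unadjusted limma p under 0.05 between genotypes, at 0.38 ± 0.16 and 0.37 ± 0.16 (SE) on the log2 scale, higher in LKO (limma, adjusted p = 0.696 for both; exact permutation test, unadjusted p = 0.0455 and 0.0514), where the share over all genes was 7.01%. Without LKO replicates 7 and 8 they were 0.33 and 0.29 (limma, unadjusted p = 0.0763 and 0.111).

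Fth1 rose with the erythroid markers (Hbb-bs, Hbb-bt, Hba-a1, Hba-a2 and Alas2), with r = 0.72 (permutation p = 0.00197, adjusted p = 0.0236), rho = 0.60 (permutation p = 0.0203) and r = 0.57 without the 2 mice farthest from the median. This call was lost in 9 of 24 alternatives. With the run taken off as well, r was 0.67 (permutation test, adjusted p = 0.0833), and without the first run 0.68 (permutation test, adjusted p = 0.157). It was 0.60 with quantile normalization and 0.57 with a pseudocount of 0.1 (permutation test, adjusted p = 0.165 and 0.207). Without LWT replicate 2 or 7 it was 0.64 and 0.66 (permutation test, adjusted p = 0.155 and 0.0797), and without LKO replicate 4, 5 or 6 it was 0.70, 0.70 and 0.68 (permutation test, adjusted p = 0.0695, 0.0535 and 0.053). Hbb-bs was listed at 0 in most livers, and without it, a choice made after the data were seen, r was 0.83 (permutation p = 0.00019, adjusted p = 0.00342). The 3 other globin genes each had an r between 0.67 and 0.69 with Fth1, and Alas2 0.21. The erythroid markers summed to between 389.9 and 946.4 FPKM in LWT and between 368.1 and 1108 FPKM in LKO livers. Hamp had no relation past the threshold with any of the 9 genes, and its r was -0.0025 with Fth1 and -0.02 with Ftl1 (permutation p = 0.993 and 0.936).

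**Figure D5:**
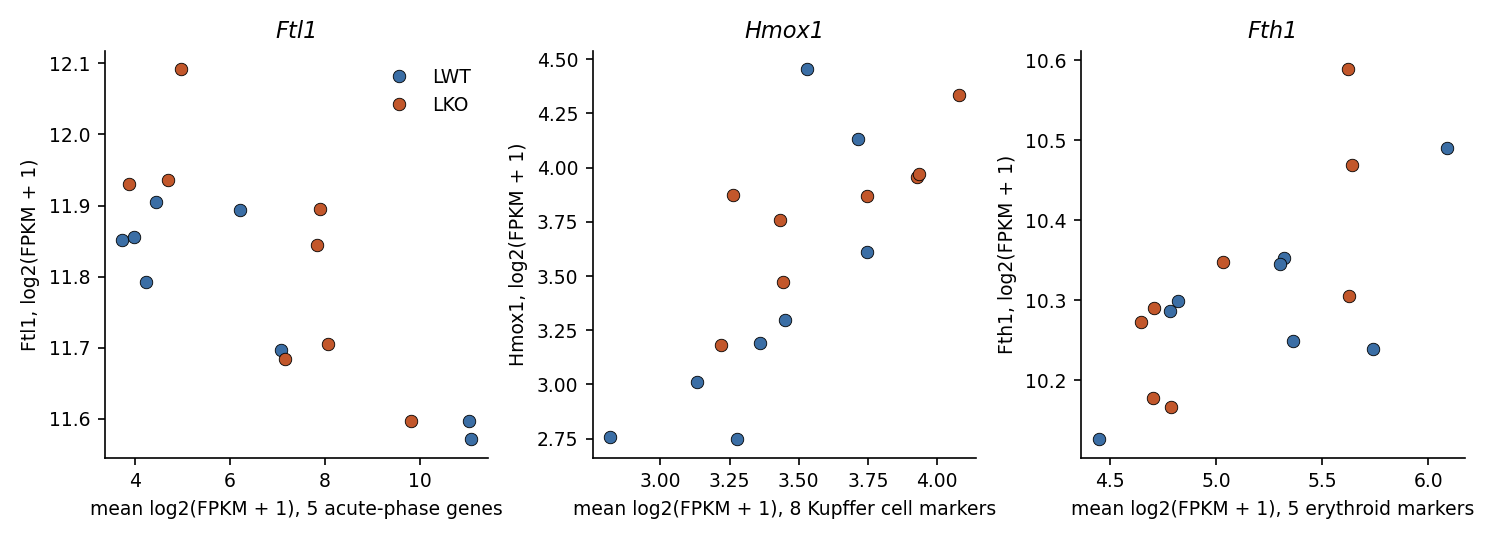
log2(FPKM + 1) of Ftl1, Hmox1 and Fth1 in each liver (vertical axes) against the mean log2(FPKM + 1) of the acute-phase genes, the Kupffer cell markers and the erythroid markers (horizontal axes), with LWT mice in blue and LKO mice in orange. Ftl1 fell along the first axis and Hmox1 and Fth1 rose along the others, with r of -0.81, 0.73 and 0.72 within genotype.

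The genes most like each of the 9 were taken as the 3 with the highest r over the 16 mice among 10037 others, which describes these libraries and carries no test. For Ftl1 they included Ndufv1 (r = 0.88) and Fbrsl1 (0.83), and for Fth1 they were Cycs (0.83), Ndufc1 (0.83) and Mtfmt (0.82). Ndufv1 and Ndufc1 encode subunits of complex I and Cycs encodes cytochrome c. For Hmox1 they were Fcgr3 (0.86), an Fc receptor of macrophages, Ticam1 (0.84) and Dmpk (0.83). For Gpx4 they were Pink1 (0.89), Mrpl14 (0.88) and 0610012G03Rik (0.88), and for Lpcat3 Nr2c1 (0.89), Ralgps1 (0.88) and Fuca2 (0.88). For Gclc they were Dyrk1a (0.93), Nek7 (0.91) and Psd3 (0.89), for Aifm2 Mms19 (0.93), Izumo4 (0.90) and Llgl2 (0.89), and for Tfrc Itga5 (0.81), Cops3 (0.80) and Dcun1d2 (0.78). For Acsl4 they included Cers6, a ceramide synthase, and Etl4, whose place rests largely on LKO replicates 7 and 8, where Cers6 was at 5.84 and 7.33 FPKM against 0.63 to 2.30 FPKM in the other mice. Within the 14 other mice their r with Acsl4 was 0.71 and 0.60.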

How the data were processed

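Liver RNA of 16 mice (8 LWT, 8 LKO) was measured by RNA sequencing of polyA RNA with stranded libraries. The authors used HISAT for alignment to mm39 and Bowtie2 for alignment to reference genes, and deposited FPKM, rounded to 2 decimals, for 17003 genes. The versions and the counting step are not given in the sources used here, and the methods give 7 mice per genotype where 8 were deposited. FPKM keep no read number, so no count test or counting error is given.

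Here, genes whose mean reached 0.1 FPKM (12770) were compared on log2(FPKM + 1) with limma (version 3.58.1, R 4.3.3; lmFit, eBayes with trend). Tests were two-sided, p-values were adjusted by Benjamini-Hochberg over these genes, and the threshold was 0.05. Such differences understate the change of low genes. Exact permutation, sign-flip and correlation tests used Python 3.11.15, numpy 2.4.6 and scipy 1.17.1, and were tested, like limma, on simulated data. Positions and elements were read from GRCm39 with GENCODE vM39. The genes and lists were chosen with earlier results of these data known. Named were the 10 genes, Fgl1, and of each list the most abundant gene, those with an unadjusted p under 0.05, Hamp, Chac1 and Ptgs2, the 3 genes most like each of the 9, and genes of small counts. Of the genes so named, 2 are not reported here. Srxn1, Gss, Gclm, Cth and Fech were named after their values were seen. Alternatives were other pseudocounts, filters, scalings, weights, covariates and mice left out, and a replicate block. No pairing of mice by replicate number is given in the sources used here. The deviations of same-numbered mice correlated above 0.1 in 3 of 8 pairs (from -0.16 to 0.45), and pairing was not tested.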

Additional observations from a re-analysis of the deposited data

How the results depend on the processing

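None of the 9 genes passed the adjusted threshold in any of the 29 limma alternatives. The 1 gene with an unadjusted p under 0.05, Acsl4, became 0 genes without the first run of mouse numbers, with array weights, with the Kupffer cell markers as a covariate and without mice 70 and 71 (LKO replicates 7 and 8). The last 2 of these were chosen after the data were seen. Leaving out 1 mouse at a time gave 0 to 2 genes (2 without LWT replicate 4 or LKO replicate 6, where Hmox1 joined). By the exact test, 1 gene became 0 with median-ratio scaling, with quantile normalization, without the first run and without mice 70 and 71, and 0 or 1 without single mice. Without LWT replicate 5 the 1 gene was Hmox1 (exact permutation p = 0.0278) and not Acsl4 (exact permutation p = 0.103), and limma's unadjusted p made the same exchange. Of the pathway genes, 4 became 8 with the run of mouse numbers in the model, and 3 to 8 without single mice (8 without LKO replicate 3). Over all 12770 genes tested, those with an unadjusted p under 0.05 (limma) went from 895 to 1032 with the run. They were 925 with the replicate block and 624 to 1233 without single mice (1112 without LKO replicate 3). The replicate block gave 0 genes of the 9 past the adjusted threshold, 1 with an unadjusted p under 0.05 and 5 pathway genes, and among all genes tested Fgl1 passed the adjusted threshold (limma, adjusted p = 0.0197). Whether these numbers pair the mice is not given in the sources used here.

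Log2 differences near 0 changed sign, and the cause was not tested. Gclc (0.02) was -0.0012 with median-ratio scaling, -0.0020 with quantile normalization, -0.10 with array weights, -0.25 without mice 70 and 71, and -0.13 to 0.13 without single mice. Tfrc (-0.07) was 0.13 with the run in the model, 0.10 without the first run, 0.00037 with array weights, 0.14 with the Kupffer covariate, 0.068 without mice 70 and 71, and -0.18 to 0.036 without single mice. Lpcat3 (0.02) was -0.040 with array weights, -0.054 with the Kupffer covariate, and -0.053 to 0.070 without single mice. Aifm2 (-0.09) was 0.034 without mice 70 and 71, and Fth1 (0.03) was -0.0089 to 0.056 without single mice. Acsl4, Gpx4, Ftl1 and Hmox1 stayed higher in LKO livers in all 29.

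No pair of the 9 genes passed among 36, and 1 did (Fth1 with Ftl1) with quantile normalization and with an equal sum of FPKM, and 0 to 2 without single mice (1 without LWT replicate 2, 2 without LWT replicate 7). The 1 gene related to the acute-phase score became 0 with median-ratio scaling and without the first run, and 1 to 2 without single mice (2 without LWT replicate 7). The neighbours in level that differed were 7 to 8 without single mice. Without read numbers, no counting error could be given, and the 2 decimals of the table leave Slc7a11 and Ptgs2 at its floor.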
